A study of Mus musculus with 23 samples.

Results

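Interferon-stimulated genes are the genes that cells switch on when an interferon binds its receptor, and 41 of them were followed here in PyMT mammary tumors. They were chosen by name, as genes known to respond to interferon, with earlier results of these data known. All 41 were found among the 47643 genes of the deposited tables, and all 41 passed the filter on low values in every comparison. The tumors arise in female mice that express the polyoma middle T oncoprotein as a transgene, on a C57BL/6 background. RNA of tumors was read by QuantSeq, which sequences the 3′ end of transcripts, in 23 libraries, and the values are normalized counts, which are read counts of a library divided by 1 size factor.

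In the neutralization experiment, PyMT WT mice received an IgG1 isotype control (5 libraries) or anti-IL-38, an antibody that binds the cytokine IL-38 (6 libraries), from a first tumor of 0.6 cm on. In the second experiment, which began at 13 weeks of age, the groups were PyMT WT with IgG (4 libraries), PyMT IL-38 KO with IgG (4 libraries) and PyMT IL-38 KO with anti-γδTCR, which blocks signals through the receptor of γδ T cells (4 libraries). Antibodies were given weekly for 5 weeks in every group. The IL-38 KO strain is C57BL/6N and was crossed with the PyMT strain, and whether IL-38 KO and WT mice were littermates is not given in the sources used here. Libraries are named below by group and replicate number. Whether each came from a separate mouse is not spelled out, so a p-value measures the spread between these samples.

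Type I interferons act through a receptor with the kinases JAK1 and TYK2 on ISGF3, a complex with STAT2 and IRF9 that binds the interferon-stimulated response element (ISRE). Interferon-γ acts through a receptor of its own on factors that bind the gamma-activated site (GAS). The products sense foreign RNA and DNA, degrade RNA or stop its translation, hold back viruses at membranes, and include the sensors and factors of the pathway itself. In a tumor, cancer cells, myeloid cells and lymphocytes can all express them.

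The depth was 6273049 to 15879164 reads on genes per library, and the members had 13 to 21396 reads each. No read of Il1f10, the gene of IL-38, was found in any of the 23 libraries, which leaves the genotype labels unchecked, and Trdc, a gene of the γδ T cell receptor, had 0 to 30 reads. The markers of luminal epithelium Epcam, Krt8, Krt18, Krt19, Cdh1 and Elf5 together had 17143 to 47118 normalized counts in the table of 19 libraries. IL-38 KO + IgG replicate 4 and the 4 anti-γδTCR libraries stood apart from the other 18. They held 1.31% to 1.98% of reads on processed pseudogenes and 11.3% to 20.1% on Gm42418, against 0.0943% to 0.191% and 2.62% to 5.70%, and at most 8794202 reads against at least 10138353. For IL-38 KO against WT and anti-γδTCR against IgG, the main counts are therefore also given without IL-38 KO + IgG replicate 4. These are members called after adjustment, members at an unadjusted p under 0.05 and groups without overlap. The other counts, such as those by role, of markers and of the interaction, include it unless its removal is stated. The column label of anti-γδTCR replicate 3, the library with 6273049 reads and 20.1% on Gm42418, alone carries the mark rep, whose meaning is not given.

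The promoters of the members were searched for the letters that the 2 families of factors bind, and stretches of 8 members whose values are given below are shown. RefSeq promoters of GRCm38.p6 were at hand for 31 members, with 38 start sites; they were at hand for all but Dhx58, Ifi27, Mx1, Mx2, Oas2, Parp14, Parp9, Rtp4, Usp18 and Zbp1. The ISRE core was searched as GAAA, NN and GAAA in a row, with N any base, on both strands (TTTC, NN and TTTC on the other) in the 250 bases before each start site, and the GAS as TTCNNNGAA, which reads the same on both strands. In the following stretches, which run 5′ to 3′ in the direction of the gene, capitals mark the ISRE core, or the run of overlapping cores. Further cores of Ifit3 and Ifit3b, at 156 to 147 and 188 to 179 bases upstream, and those of Bst2, Ifit1, Irgm1, Rsad2, Stat2 and Trim30a are not shown.

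Ifit3, chr19:34583387-34583436, plus strand: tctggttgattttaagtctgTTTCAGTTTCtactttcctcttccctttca
Ifit3b, chr19:34607783-34607832, plus strand: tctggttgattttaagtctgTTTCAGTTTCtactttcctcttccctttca
Isg15, chr4:156200855-156200916, minus strand: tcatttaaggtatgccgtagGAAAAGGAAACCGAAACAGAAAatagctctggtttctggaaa
Oas1a, chr5:120907526-120907565, minus strand: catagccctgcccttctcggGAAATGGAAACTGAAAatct
Oas3, chr5:120777705-120777754, minus strand: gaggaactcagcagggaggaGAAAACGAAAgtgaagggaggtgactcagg
Gbp2, chr3:142620584-142620633, plus strand: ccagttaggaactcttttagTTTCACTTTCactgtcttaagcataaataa
Gbp3, chr3:142559979-142560034, plus strand: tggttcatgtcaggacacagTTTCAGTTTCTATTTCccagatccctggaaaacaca
Igtp, chr11:58199502-58199551, plus strand: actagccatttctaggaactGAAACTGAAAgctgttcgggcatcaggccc

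An ISRE core was found in 14 of the 31 members (45.2%), against 936 of 27025 genes with a promoter (3.46%). The Ifit3 and Ifit3b stretches were identical over all 50 bases. Isg15, Oas1a and Gbp3 held overlapping cores, as did Bst2 and Irgm1, whose cores are not shown. A GAS was found in 7 of 31 members (22.6%), against 2197 of 27025 genes (8.13%). Of these 7, Bst2, Igtp and Oas1a also held an ISRE core, while Eif2ak2, Ifit2, Irf1 and Isg20 held the GAS without it. Irf1, a factor that comes up in each comparison below, is shown with its GAS in capitals.

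Irf1, chr11:53769904-53769952, plus strand: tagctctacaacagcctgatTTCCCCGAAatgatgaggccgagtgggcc

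These are matches of letters in a window and no binding was measured. Across 75-base words of the last 400 bases of their transcripts, Oas1a shared 29.45% with Oas1g, Ifit3 shared 12.9% with Ifit3b and Ifitm3 shared 1.23% with Gm7676, so reads of these genes may be split with their copies. The other 38 members shared none.

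**Figure D1:**
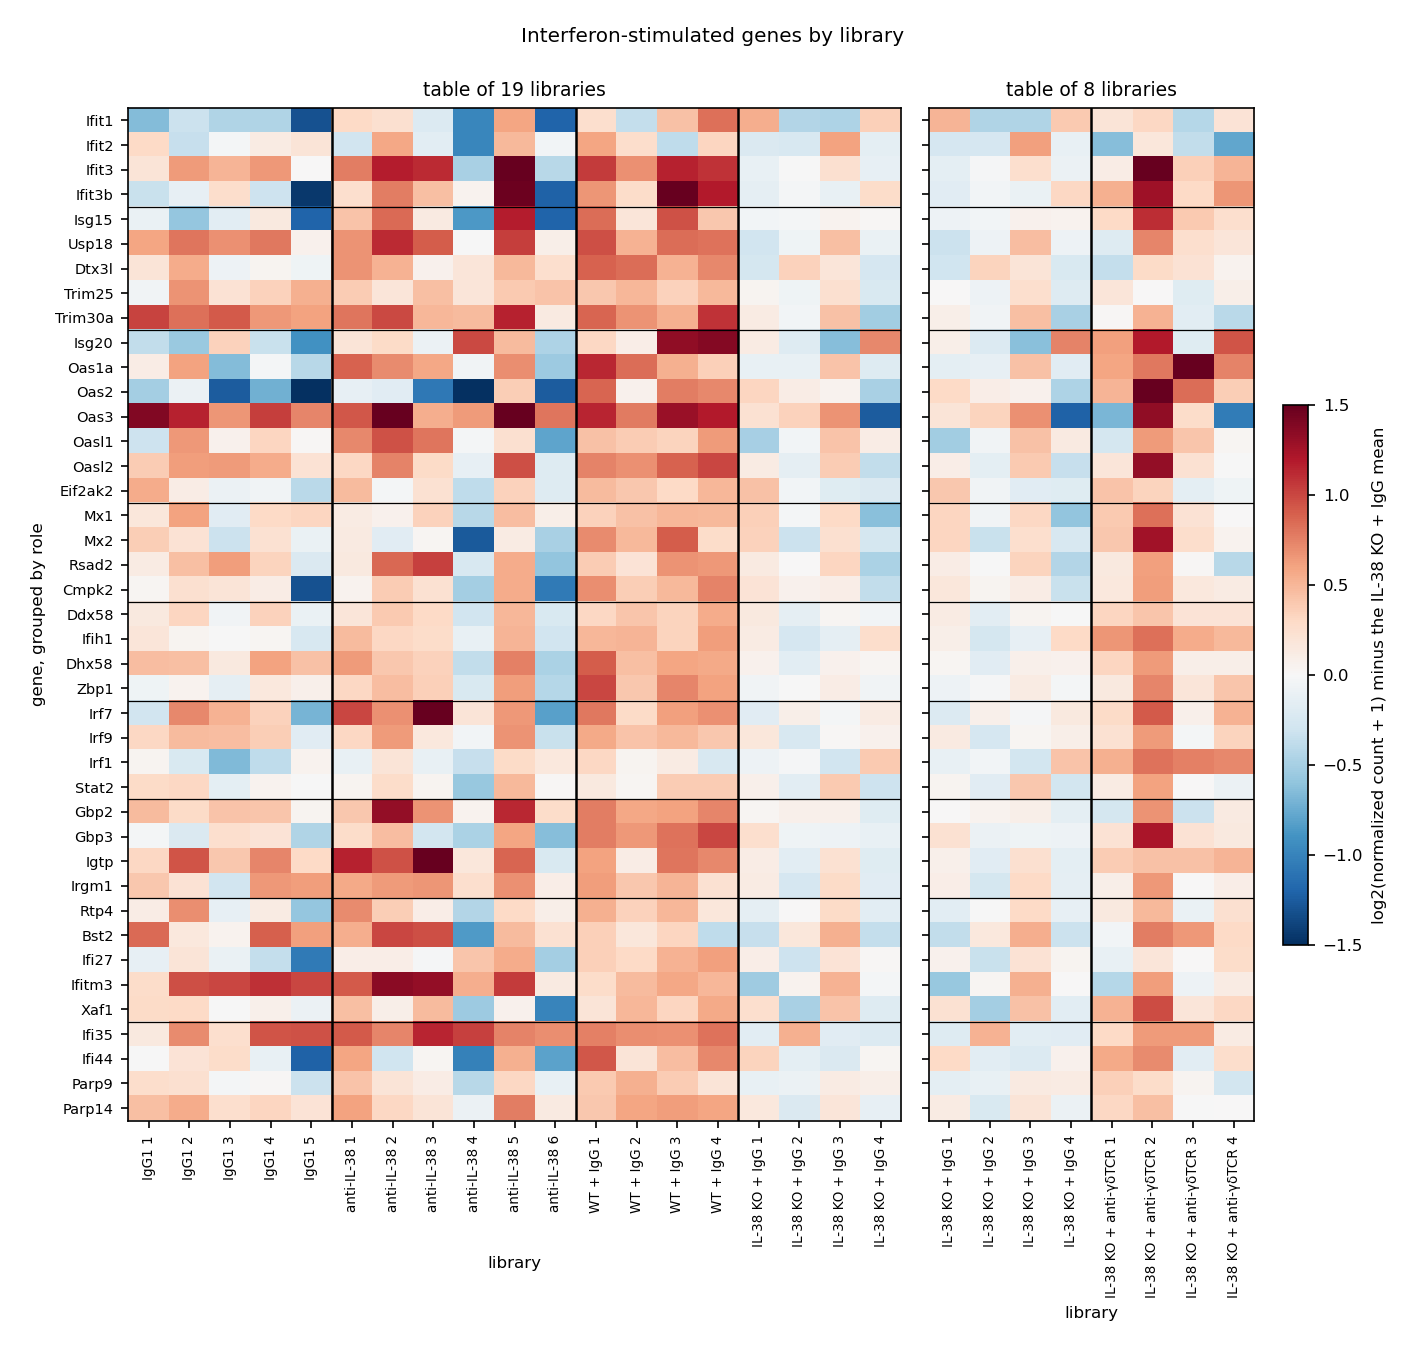
Each row is a gene and each column a library, in the table of 19 libraries (left) and the table of 8 (right). Colors give log2(normalized count + 1) minus the mean of IL-38 KO + IgG in the same table, so red is above that mean. Black lines part groups and roles. The 4 WT + IgG columns are red in most rows, anti-IL-38 replicates 4 and 6 are blue in many, and anti-γδTCR replicate 2 is the reddest column on the right.

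The comparison of IL-38 KO with WT tumors asked how tumors that lack the Il1f10 gene differ. All 41 members had a lower mean log2 level in IL-38 KO tumors than in WT tumors, by 0.06 (Irf1) to 1.10 (Oas3) on the log2 scale. The median log2 fold change of the members was -0.56, against 0.01 over the 16563 genes tested. The share of all genes with a negative log2 fold change was 49.4%. 31 of 41 members had an unadjusted p under 0.05 and were lower, against 5.4% of all genes, and in 22 of 41 every IL-38 KO tumor lay below every WT tumor, against 3.41% of all genes. After Benjamini-Hochberg adjustment over all genes no member passed 0.05 in limma (0.00604% of all genes did), where the lowest adjusted p was 0.103. In edgeR no member passed either, with 31 at an unadjusted p under 0.05 (13.4% of all genes), and in DESeq2 15 of 41 passed, against 1.8% of all genes. The members vary together from tumor to tumor, as described further on, so they are not 41 independent observations.

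IFIT proteins bind viral RNA and stop its translation. Ifit3 had 1538, 1198, 1657 and 1585 normalized counts in WT replicates 1 to 4 and 689, 742, 878 and 687 in IL-38 KO replicates 1 to 4. The groups did not overlap, and the difference of 1.99-fold (log2 fold change -0.99, SE 0.15, adjusted p = 0.103 in limma) had the smallest p of the members. Its near copy Ifit3b was also lower (log2 fold change -0.91, SE 0.24, adjusted p = 0.235), without overlap. Ifit1, which recognizes the cap of foreign RNA, had 1670, 1089, 1894 and 2480 in WT and 2033, 1033, 1016 and 1791 in IL-38 KO tumors. Its groups overlapped widely (log2 fold change -0.29, SE 0.28, adjusted p = 0.694), as did those of Ifit2 (log2 fold change -0.20, SE 0.25).

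The next role joins the ISG15 system, a ubiquitin-like tag and its enzymes, with E3 ligases. The groups of all 5 members were apart (3.41% of all genes). Isg15, the tag itself, had 2928, 1844, 3173 and 2162 normalized counts in WT and 1581, 1606, 1694 and 1651 in IL-38 KO tumors. WT tumors, with a mean of 2527 ± 627 (SD, n = 4), were more spread than knockout tumors, with 1633 ± 49.9 (SD, n = 4), and the log2 fold change was -0.60 (SE 0.17, adjusted p = 0.26 in limma). Usp18, which removes the tag and restrains the receptor, had 447, 329, 410 and 405 in WT and 187, 220, 314 and 213 in IL-38 KO tumors (log2 fold change -0.78, SE 0.18). The E3 ligase Dtx3l was lower with a log2 fold change of -0.74 (SE 0.17), and the TRIM protein Trim30a with -0.79 (SE 0.20). Trim25, which adds ubiquitin to RIG-I, had the smallest difference of the 5 (log2 fold change -0.43, SE 0.13).

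The 2-5A synthetases make the signal that switches on RNase L. Oasl2 had 1428, 1378, 1579 and 1715 normalized counts in WT and 933, 779, 1112 and 660 in IL-38 KO tumors, without overlap (log2 fold change -0.83, SE 0.17, adjusted p = 0.21 in limma). Oas2 had 747, 427, 696 and 675 in WT and 513, 441, 426 and 291 in IL-38 KO tumors, where WT replicate 2 lay within the IL-38 KO range (log2 fold change -0.60, SE 0.22, adjusted p = 0.325). Oas3 had 307, 238, 342 and 317 against 162, 176, 222 and 57.8, and the lowest value came from IL-38 KO + IgG replicate 4. This role has 7 genes, among them the RNase Isg20 and the kinase PKR (Eif2ak2). Of these, 5 were lower at an unadjusted p under 0.05 (5.4% of all genes) and 2 had groups without overlap (3.41%).

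Among members of other roles, Mx1, of the Mx GTPase family, had 191, 204, 213 and 211 normalized counts in WT and 193, 147, 185 and 97.3 in IL-38 KO tumors (log2 fold change -0.44, SE 0.22, adjusted p = 0.437 in limma). Rsad2, the radical SAM enzyme viperin, had 2651, 2352, 3249 and 3206 against 2239, 2051, 2555 and 1472 (log2 fold change -0.48, SE 0.18, adjusted p = 0.348). Mx1 and Rsad2 overlapped between genotypes. RNA does not show whether a working protein was made, and Mx2 is annotated as a polymorphic pseudogene. Bst2, the tether of budding virions, had 1494, 1315, 1456 and 893 against 919, 1316, 1683 and 910 (log2 fold change -0.12, SE 0.23), so that its groups were mixed. Of the 5 membrane and mitochondrial members, Ifi27 alone had groups without overlap (3.41% of all genes). 2 of the 5 had an unadjusted p under 0.05 and were lower (5.4%).

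The GTPases induced by interferon-γ act on vacuoles that hold microbes. 4 of 4 were lower at an unadjusted p under 0.05 (5.4% of all genes). Gbp2 had 458, 401, 407 and 446 normalized counts in WT and 275, 283, 283 and 237 in IL-38 KO tumors, a gap between the groups of more than the spread within either (1.59-fold lower, log2 fold change -0.67, SE 0.14, adjusted p = 0.21 in limma). Gbp3 had 472, 436, 490 and 556 against 331, 265, 264 and 257 (1.75-fold lower, log2 fold change -0.81, SE 0.15, adjusted p = 0.156). Igtp overlapped at WT replicate 2, with 682, 484, 781 and 739 against 485, 403, 526 and 396 (log2 fold change -0.56, SE 0.18, adjusted p = 0.286).

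All 4 nucleic acid sensors lay lower in every IL-38 KO tumor than in every WT tumor (3.41% of all genes). Zbp1, a sensor of Z-form nucleic acid, had 644, 427, 535 and 488 normalized counts in WT and 310, 320, 348 and 309 in IL-38 KO tumors (1.61-fold lower, log2 fold change -0.69, SE 0.15, adjusted p = 0.21 in limma). Ifih1, the RNA sensor MDA5, had 1246, 1249, 1107 and 1356 against 957, 738, 801 and 1059 (log2 fold change -0.49, SE 0.15, adjusted p = 0.27). Dhx58, or LGP2, was lower with a log2 fold change of -0.63 (SE 0.15) and Ddx58, or RIG-I, with -0.40 (SE 0.12).

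The transcription factors were split. Irf7, which amplifies type I interferon, had 2464, 1739, 2181 and 2287 normalized counts in WT and 1262, 1512, 1398 and 1547 in IL-38 KO tumors, without overlap (log2 fold change -0.59, SE 0.14, adjusted p = 0.21 in limma), and Irf9 lay apart as well (log2 fold change -0.47, SE 0.13). Irf1, a factor induced through the GAS, had 1564, 1292, 1377 and 1068 against 1191, 1242, 1028 and 1657, with the highest value of all 8 in IL-38 KO + IgG replicate 4 (log2 fold change -0.06, SE 0.17, 95% CI -0.44 to 0.32). Stat2 had 623, 571, 730 and 733 against 591, 504, 736 and 453 (log2 fold change -0.23, SE 0.17). Of the cytoplasmic factors, Parp14, an ADP-ribosyltransferase, had 1707, 1947, 1993 and 1959 against 1440, 1117, 1467 and 1188.8, without overlap (log2 fold change -0.55, SE 0.14, adjusted p = 0.21), and Ifi35 was lower with a log2 fold change of -0.74 (SE 0.18).

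Without IL-38 KO + IgG replicate 4, 29 of 41 members had an unadjusted p under 0.05 and were lower (5.36% of all genes), 22 of 41 had groups without overlap (5.45% of all genes), 0 passed the adjusted threshold (0.0431% of all genes), and the median log2 fold change was -0.50. Markers of several other cell types were also lower, and in bulk tumors fewer cells of a type cannot be told apart from less RNA per cell. Macrophage markers were lower in 8 of 8, with 2 at an unadjusted p under 0.05, and summed to 30074 to 77601 normalized counts in IL-38 KO tumors and 67801 to 87685 in WT tumors. Adipocyte markers were lower in 5 of 5, with 3 at an unadjusted p under 0.05, and summed to 3220 to 16331 against 14375 to 22386. T and NK cell markers were lower in 9 of 10 tested, with 1 at an unadjusted p under 0.05, and summed to 78.6 to 264 against 139 to 332. Type 1 dendritic cell markers were split, with 3 of 6 lower at an unadjusted p under 0.05 (Batf3, Clec9a and Irf8, with log2 fold changes of -1.23, -1.11 and -0.82) and Cadm1 higher at one (0.49), and summed to 1939 to 3458 against 2474 to 3467. Markers of basal epithelium were lower in 4 of 5, with 2 at an unadjusted p under 0.05, and summed to 3195 to 5341 against 5608 to 11188, so that the groups did not overlap. Skeletal muscle markers were higher in 5 of 5 (median log2 fold change 2.26), with 1 at an unadjusted p under 0.05, and summed to 290.5 to 4093 against 192 to 875. None of the genes of these lists was at 0 in all libraries, and their part in the difference was not tested.

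**Figure D2:**
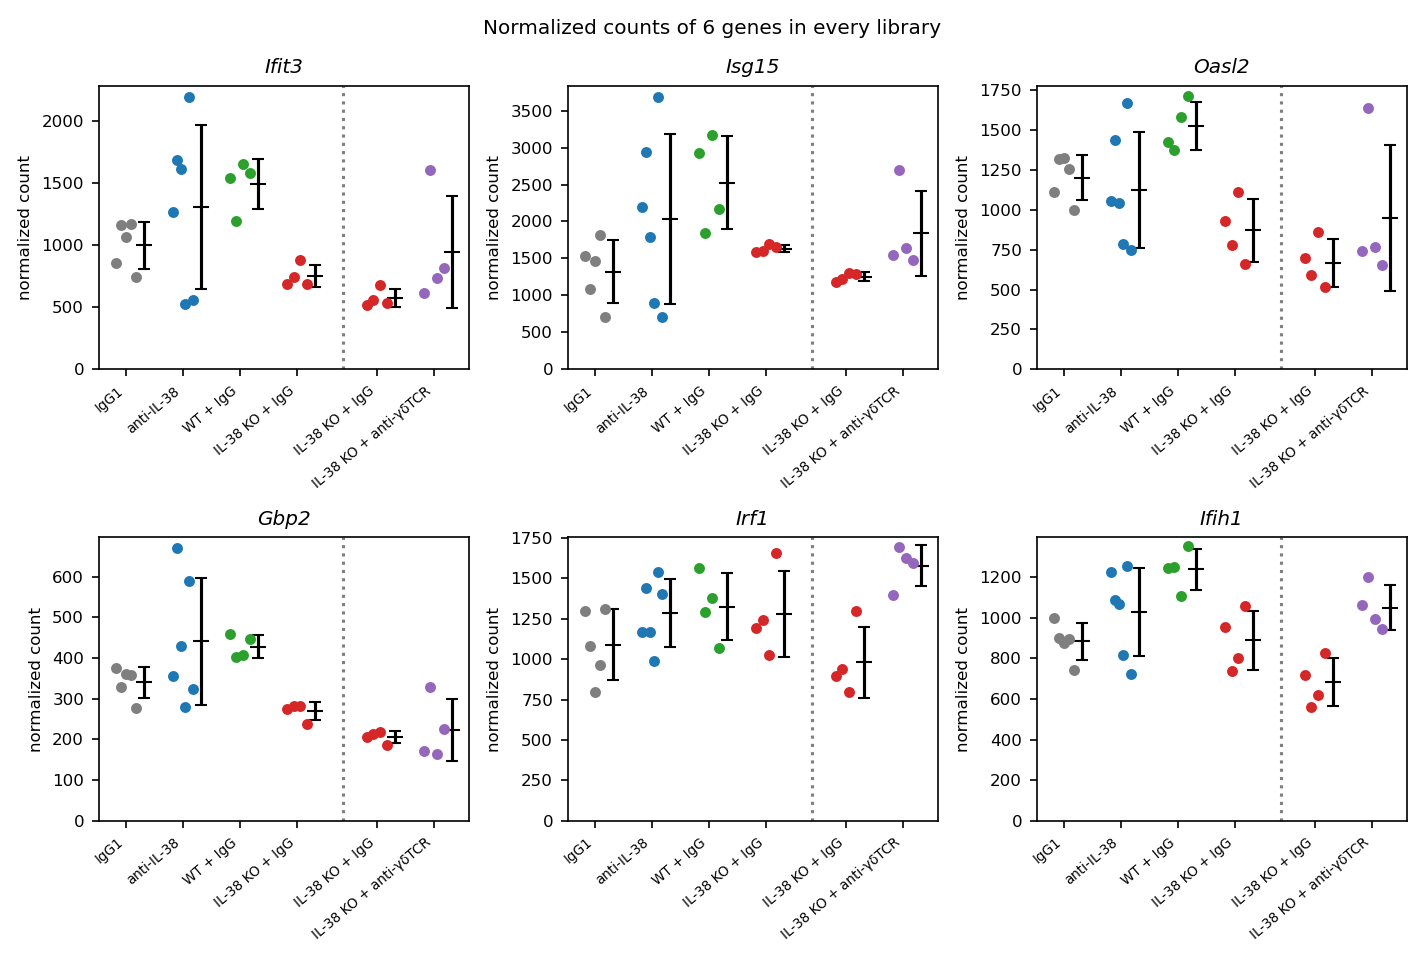
Each point is the normalized count of a library, bars give the mean and SD of the group beside it, and a dotted line parts the table of 19 libraries (left) from the table of 8 (right), which was normalized separately. IL-38 KO + IgG libraries lie below all WT + IgG libraries for Ifit3, Isg15, Oasl2, Gbp2 and Ifih1, but not for Irf1, and anti-IL-38 libraries spread widely.

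Neutralization of IL-38 in established tumors gave no such separation. With anti-IL-38, 29 of 41 members had a higher mean log2 level than with IgG1, where 50.2% of all 16002 genes tested did, and the median log2 fold change was 0.05 over the members and 0.00 over all genes. Differences ranged from -0.35 (Mx2) to 0.69 (Ifit3b). 1 of 41 members had an unadjusted p under 0.05 and was higher (5.61% of all genes), 0 of 41 had one and were lower (4.91%), and 0 of 41 had groups without overlap (0.4% of all genes higher and 0.644% lower). No member passed the adjusted threshold in limma, edgeR or DESeq2, where 0.469% of all genes passed. An unadjusted p under 0.05 was found for 1 member in edgeR (10.7% of all genes) and for 2 in DESeq2 (11.7%).

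The member at an unadjusted p under 0.05 was the RNase Isg20, with 85.0, 74.5, 141, 87.5 and 58.1 normalized counts in IgG1 replicates 1 to 5 and, in anti-IL-38 tumors, a lowest value of 79.8, a median of 131 and a highest of 219 (log2 fold change 0.60, SE 0.27, adjusted p = 0.471 in limma). Ifit3 spanned 747 to 1171 in the 5 IgG1 tumors (median 1064) and 530 to 2198 in the 6 anti-IL-38 tumors (median 1442), so that the treated group enclosed the control group (log2 fold change 0.22, SE 0.34, adjusted p = 0.833). Isg15 behaved alike, with 708 to 1812 (median 1461) and 708 to 3684 (median 1992). The 95% confidence interval of its log2 fold change (0.46, SE 0.39) ran from -0.38 to 1.31.

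The spread within the anti-IL-38 group followed single tumors. Replicates 4 and 6 held the lowest of the 6 values between them in 39 of 41 members. Replicate 5 held the highest in 21 of 41 (shares of all genes not counted). Gbp2 had 357, 670, 429, 279, 590 and 324 normalized counts in anti-IL-38 replicates 1 to 6, against 277 to 375 in IgG1 tumors (log2 fold change 0.31, SE 0.21). Irf7 had 2856, 2290, 4262, 1623, 2239 and 809 (log2 fold change 0.43, SE 0.36), and Oas2 had 376, 363, 194, 115, 529 and 171 (log2 fold change 0.21, SE 0.39). In the IgG1 group, replicate 5 was the lowest of 5 in 25 of 41 members (share of all genes not counted). Without IgG1 replicate 5, 19 of 41 members (49.3% of all genes) were higher in place of 29, and without anti-IL-38 replicate 5 the number was also 19 (50.2%). Without anti-IL-38 replicate 6, 5 of 41 members (5.95% of all genes) had an unadjusted p under 0.05 and were higher, in place of 1.

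Over the other representatives of each role, the log2 fold change with anti-IL-38 was 0.42 for Ifit1 (SE 0.31), 0.05 for Usp18 (SE 0.23), -0.15 for Oasl2 (SE 0.20), -0.14 for Mx1 (SE 0.19) and 0.03 for Rsad2 (SE 0.27). It was 0.23 for Igtp (SE 0.28), 0.25 for Irf1 (SE 0.16), -0.05 for Stat2 (SE 0.17), 0.20 for Ifih1 (SE 0.15), 0.17 for Zbp1 (SE 0.18), -0.12 for Bst2 (SE 0.29) and -0.03 for Parp14 (SE 0.15). The 12 lie between -0.15 and 0.42, and none had an unadjusted p under 0.05. T and NK cell markers were higher in 10 of 10 tested with anti-IL-38 (50.2% of all genes). Their summed counts overlapped between the groups. Markers of luminal epithelium, fibroblasts and endothelium were also higher, in 6 of 6, 6 of 6 and 5 of 5. Of these 4 lists, Gzmb and Krt8 had an unadjusted p under 0.05. Macrophage, neutrophil and adipocyte markers were lower in 5 of 8, 4 of 4 and 4 of 5 tested. In each of the last 3 lists, 1 lower marker had an unadjusted p under 0.05.

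**Figure D3:**
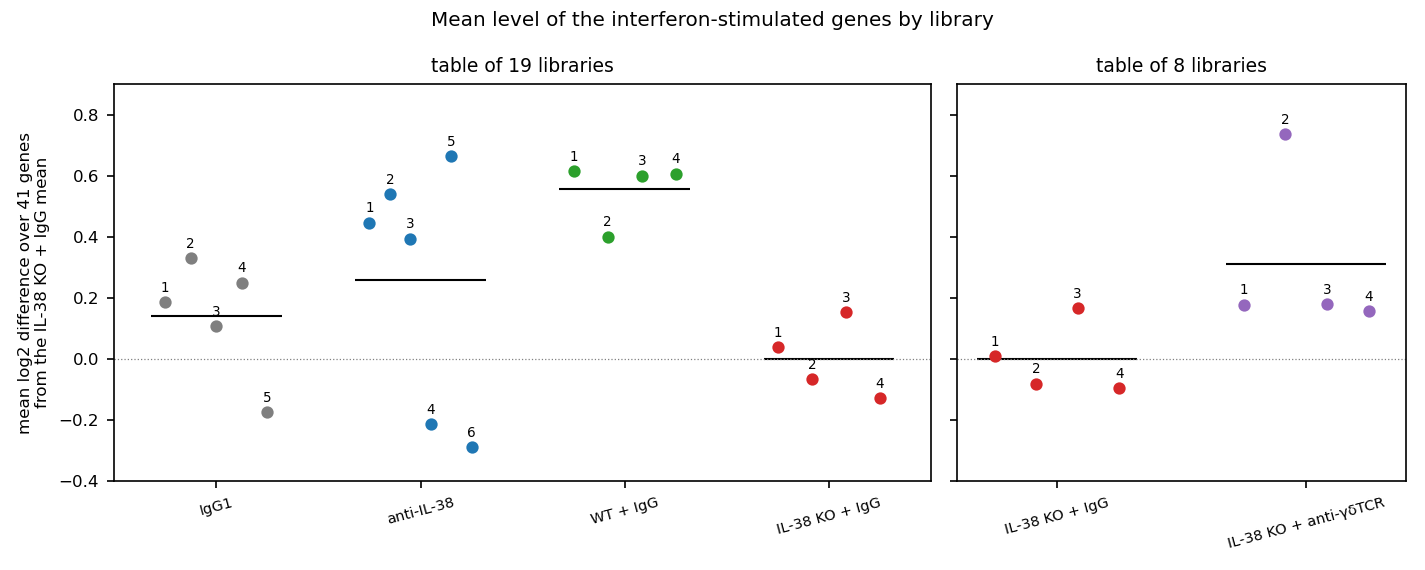
Each point is a library, numbered by replicate, and gives the mean over 41 genes of log2(normalized count + 1) minus the IL-38 KO + IgG mean of the same table; lines mark group means. WT + IgG libraries lie between 0.40 and 0.62, IL-38 KO + IgG libraries between -0.13 and 0.15, anti-IL-38 libraries between -0.29 and 0.67, and anti-γδTCR replicate 2 at 0.74 is above its 3 companions at 0.16 to 0.18.

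Whether antibody and knockout differed in their effect was tested as an interaction over 19 libraries. The difference, antibody effect minus knockout effect, was positive in 40 of 41 members (52.3% of all 16352 genes), with a median of 0.66 on the log2 scale against 0.02 over all genes. 19 of 41 had an unadjusted p under 0.05 in this direction (4.24% of all genes) and 0 of 41 in the other (3.43%), and no member passed the adjusted threshold in limma, where 1 gene of 16352 did (0.00612%), or in edgeR, where 23 members had an unadjusted p under 0.05 (8.27% of all genes). The members with the smallest p were Dtx3l (0.98, SE 0.23, adjusted p = 0.491 in limma), Ifi35 (1.02, SE 0.26), Gbp2 (0.98, SE 0.28), Zbp1 (0.85, SE 0.25) and Ifih1 (0.69, SE 0.22). Ifit3 differed by 1.21 (SE 0.44) and Ifit3b by 1.60 (SE 0.55). Bst2 was the exception, with a difference of -0.01 (SE 0.42).

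The 2 experiments also differed in their controls. Of the 4 groups in the table of 19 libraries, WT + IgG had the highest mean normalized count in 33 of 41 members, anti-IL-38 in 6 and IgG1 in 2. IL-38 KO + IgG had the lowest mean in 26 of 41, IgG1 in 12 and anti-IL-38 in 3. WT + IgG lay above IgG1 without overlap in 11 of 41 members (3.54% of all genes), and IL-38 KO + IgG lay below IgG1 without overlap in 4 of 41 (6.87% of all genes). Gbp3 is an example of the first kind, with 472, 436, 490 and 556 in WT + IgG, 273, 239, 331, 320 and 203 in IgG1 and 331, 265, 264 and 257 in IL-38 KO + IgG, so that the IL-38 KO values lay within the IgG1 range. For Trim30a, IgG1 tumors had 2086, 1832, 1943, 1622 and 1570, within the WT range of 1494 to 2185, and IL-38 KO tumors 1119, 1005, 1401 and 716. The experiments differ in antibody and in the start of treatment, and these and other differences between them cannot be told apart.

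**Figure D4:**
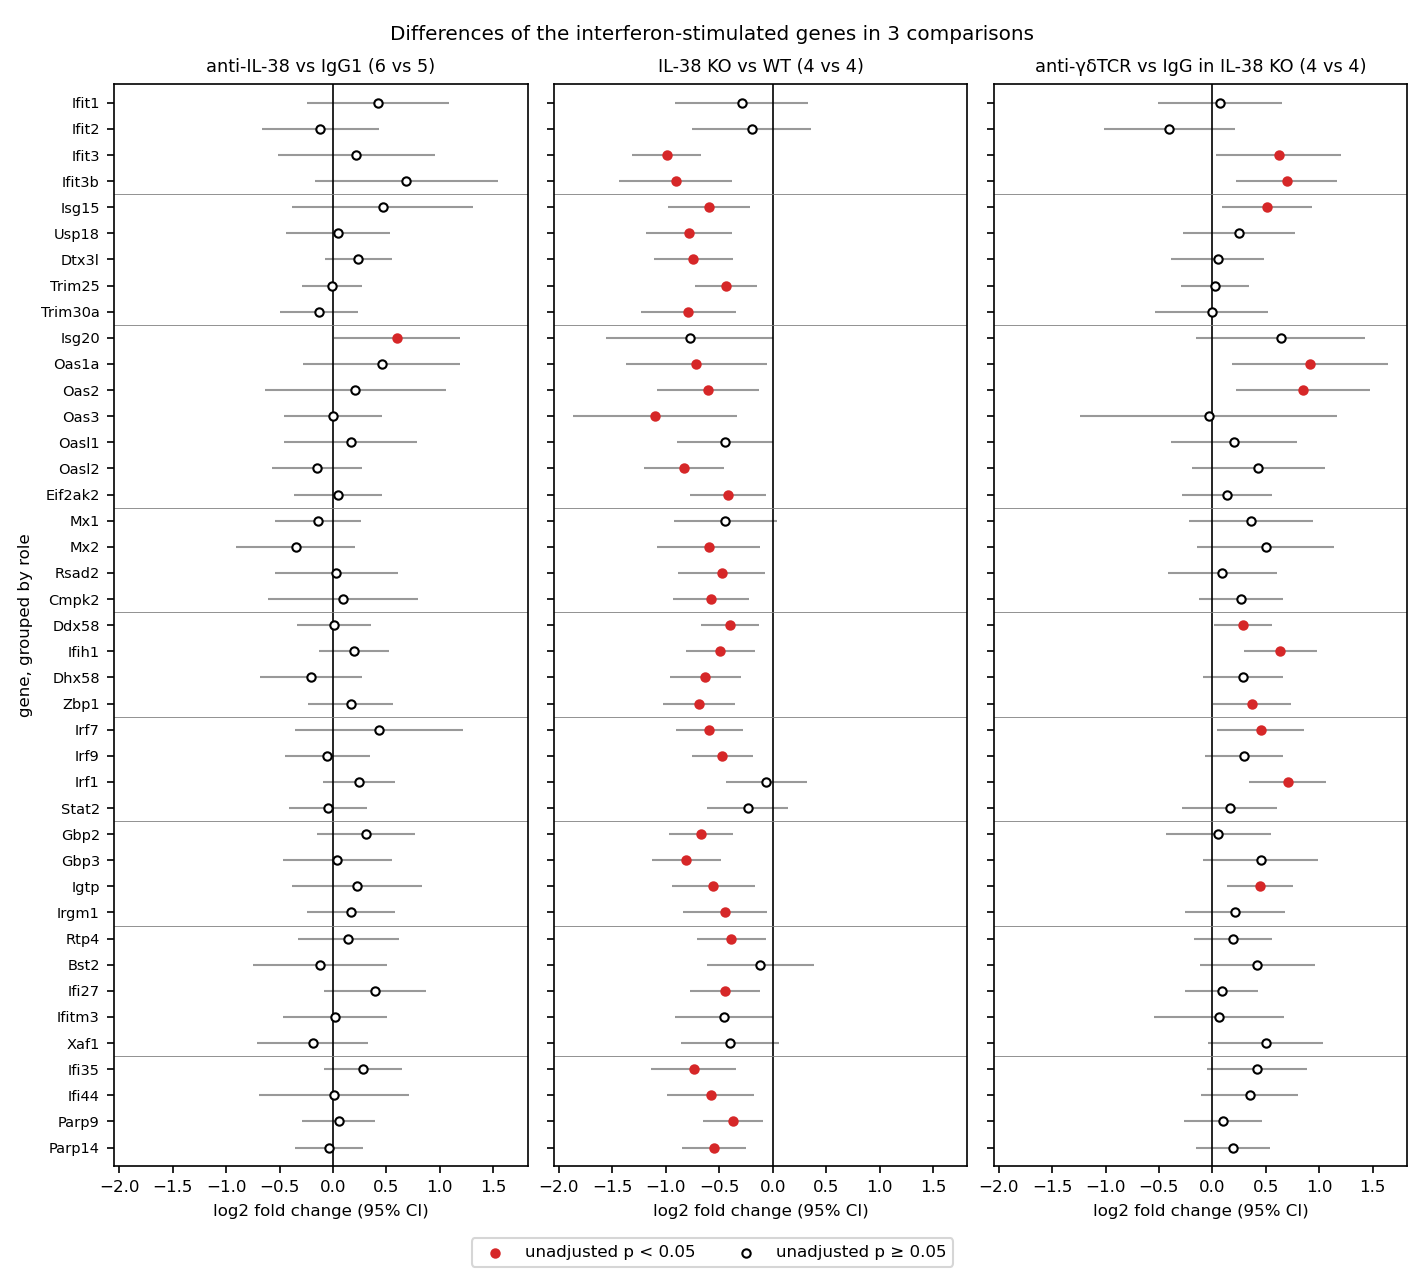
Points are log2 fold changes of the 41 genes with 95% confidence intervals from limma, in 3 comparisons, with genes ordered by role; filled red points had an unadjusted p under 0.05. No gene passed 0.05 after adjustment. All points lie left of 0 for IL-38 KO against WT, 29 of 41 lie right of it for anti-IL-38 and 38 of 41 for anti-γδTCR.

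Blockade of the γδ TCR was compared with IgG in IL-38 KO tumors, in a table that was normalized separately and shares its IL-38 KO + IgG libraries with the comparison of genotypes. With anti-γδTCR, 38 of 41 members had a higher mean log2 level (51.9% of all 16481 genes tested), all but Ifit2, Oas3 and Trim30a. The median log2 fold change was 0.29 over the members and 0.02 over all genes. 11 of 41 had an unadjusted p under 0.05 and were higher (12.7% of all genes), 0 of 41 had one and were lower (9.0%), and 9 of 41 had groups without overlap in the higher direction (4.57%). No member passed the adjusted threshold in limma, where the lowest adjusted p was 0.0657, or in edgeR, with 9 at an unadjusted p under 0.05 (18.7% of all genes), and 4 passed in DESeq2 (6.25% of all genes).

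Irf1 had 894, 942, 794 and 1298 normalized counts in IL-38 KO + IgG replicates 1 to 4 and 1397, 1695, 1625 and 1595 with anti-γδTCR, without overlap (1.63-fold higher, log2 fold change 0.70, SE 0.16, adjusted p = 0.0657 in limma). Ifih1 had 718, 560, 619 and 829 against 1065, 1199, 995 and 943, also without overlap (1.55-fold higher, log2 fold change 0.63, SE 0.15, adjusted p = 0.0657). In both genes all 4 treated values lay above the highest control value.

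Several other members were highest in anti-γδTCR replicate 2. Ifit3 had 518, 562, 678 and 538 normalized counts with IgG and 615, 1609, 735 and 816 with anti-γδTCR, where the first treated value lay within the control range (log2 fold change 0.62, SE 0.26, adjusted p = 0.205 in limma). Oas2 had 385, 334, 329 and 227 against 446, 1014, 559 and 404 (1.80-fold higher, log2 fold change 0.85, SE 0.28, adjusted p = 0.113), and Isg15 had 1187, 1217, 1308 and 1293 against 1542, 2700, 1641 and 1483 (log2 fold change 0.51, SE 0.19, adjusted p = 0.145). Oasl2 had 700, 590, 859 and 517 against 740, 1635, 769 and 651 (log2 fold change 0.43, SE 0.28, adjusted p = 0.42). Replicate 2 of anti-γδTCR was the highest of all 8 libraries in 31 of 41 members (share of all genes not counted). Without it, 33 of 41 members were higher (51.7% of all genes), 7 of 41 had an unadjusted p under 0.05 and were higher (10.7%), and the median log2 fold change was 0.17.

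By role, all 4 sensors had groups without overlap, with log2 fold changes of 0.28 (Dhx58, SE 0.17) to 0.63. Ddx58 was higher by 0.29 (SE 0.12) and Zbp1 by 0.37 (SE 0.16). Of the GTPases induced by interferon-γ, Igtp had 364, 306, 407 and 310 against 449, 468, 469 and 489 (log2 fold change 0.44, SE 0.14, adjusted p = 0.0955 in limma), while Gbp2 had 206, 214, 219 and 186 against 171, 328, 165 and 227, with treated values on both sides of the controls (log2 fold change 0.06, SE 0.22). Oas1a was higher by 0.92 (SE 0.33), Ifit3b by 0.69 (SE 0.21) and Irf7 by 0.45 (SE 0.18). The remaining representatives had log2 fold changes of 0.07 for Ifit1 (SE 0.26), 0.25 for Usp18 (SE 0.24), 0.36 for Mx1 (SE 0.26), 0.09 for Rsad2 (SE 0.23), 0.16 for Stat2 (SE 0.20), 0.42 for Bst2 (SE 0.24) and 0.19 for Parp14 (SE 0.16).

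The 4 treated libraries share their high pseudogene and Gm42418 reads with IL-38 KO + IgG replicate 4. This library lay below all 4 of them in 27 of 41 members (share of all genes not counted). It was the highest of the 4 IgG libraries for Ifit3b (318 normalized counts), Irf1 (1298) and Ifih1 (829). Without it, 3 of 41 members passed the adjusted threshold in limma, namely Ifit3b, Irf1 and Ifih1, but so did 14.3% of all genes. 9 of 41 then had an unadjusted p under 0.05 and were higher (15.2% of all genes), and 11 of 41 had groups without overlap (14.3% of all genes). Macrophage markers were lower with anti-γδTCR in 7 of 8, with 5 at an unadjusted p under 0.05, and summed to 27626 to 33878 normalized counts against 23551 to 59944 with IgG. T and NK cell markers were higher in 10 of 10 tested with none at an unadjusted p under 0.05, and summed to 132 to 186 against 59.0 to 207. Markers of basal and of luminal epithelium and of skeletal muscle were higher in 5 of 5, 6 of 6 and 5 of 5, with 2, 1 and 1 at an unadjusted p under 0.05, and those of type 1 dendritic cells and adipocytes lower in 4 of 6 and 4 of 5, with 1 each. None of these markers was at 0 in all libraries. The part of the library differences and of these markers in the result was not tested.

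Pooling both experiments, tumors with IL-38 inhibited (10) against controls (9), which uses the same libraries again, 38 of 41 members were lower with a median log2 fold change of -0.16 (0.00 over all 16352 genes). 5 of 41 had an unadjusted p under 0.05 and were lower (4.13% of all genes): Oasl2 (-0.44, SE 0.15), Dhx58 (-0.38, SE 0.15), Mx2 (-0.47, SE 0.19), Trim30a (-0.39, SE 0.17) and Parp14 (-0.25, SE 0.12). No member passed the adjusted threshold in limma, edgeR (0.00612% of all genes passed) or DESeq2 (0.428%), with 3 at an unadjusted p under 0.05 in each (11.6% and 11.4% of all genes).

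Apart from group differences, the members varied together between tumors of 1 group. After the group mean was subtracted in each of 19 libraries, the SD of log2 values was 0.19 (Trim25) to 0.66 (Ifit3b), with a median of 0.35 against 0.39 over all 16352 genes. The correlation of a member with the mean of the other 40 had a median Pearson r of 0.73 and a median Spearman rho of 0.63, and 31 of 41 had r over 0.5, against 3.96% of other genes. These points share the library, its size factor and its depth. Without anti-IL-38 replicates 4 and 6, the libraries farthest from the median, the median r was 0.62 and 27 of 41 had r over 0.5. Ifit3 had the highest value (r = 0.94, rho = 0.88, and r = 0.88 without the 2 libraries), followed by Usp18 (r = 0.90), Isg15 (r = 0.89), Ddx58 (r = 0.89) and Oasl2 (r = 0.87).

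The lowest values were those of 4 members, namely Trim25 (r = 0.08), Isg20 (r = 0.03), Irf1 (r = 0.02) and Ifi35 (r = -0.13). Irf1 and Isg20 hold a GAS without an ISRE core in the searched window, as do Eif2ak2 (r = 0.60) and Ifit2 (r = 0.42), and neither motif was found for Trim25 and Ifi35. In the table of 8 libraries the median r was also 0.73, but it was 0.26 without IL-38 KO + IgG replicate 3 and anti-γδTCR replicate 2, so there it rested on these libraries.

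**Figure D5:**
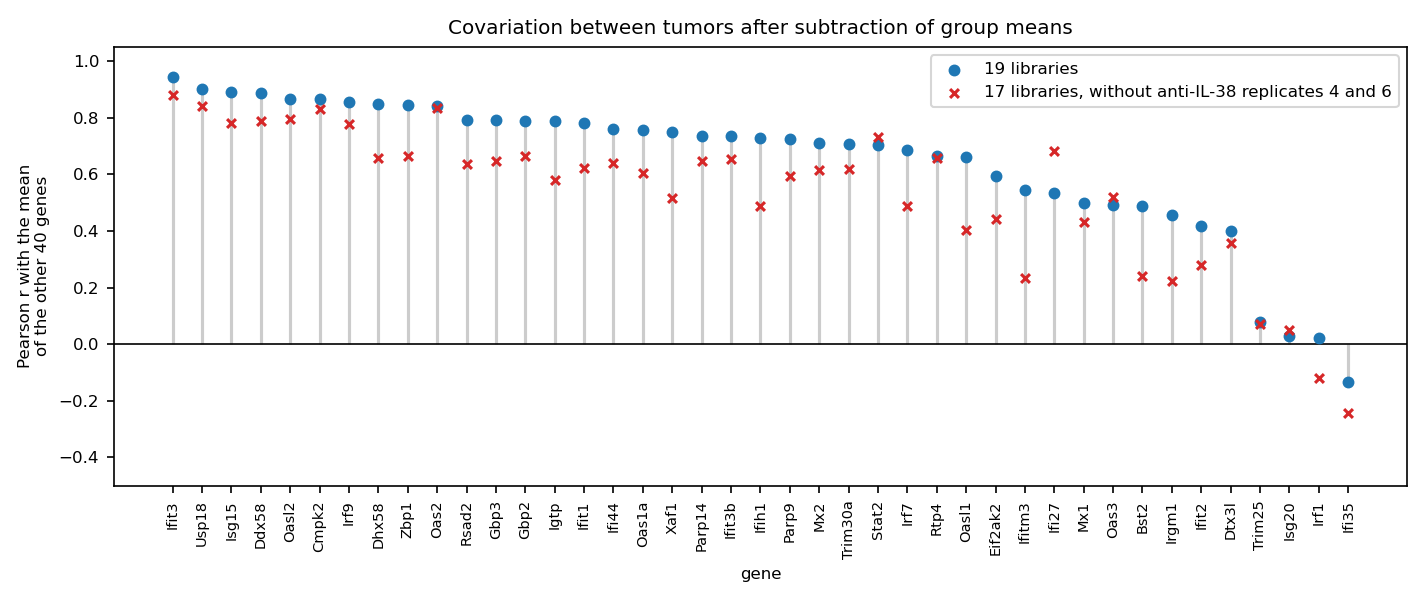
Blue points give, for each gene, Pearson r between its log2 level and the mean of the other 40 genes over 19 libraries after group means were subtracted, and red crosses the same over 17 libraries. Genes are ordered by r, from Ifit3 at 0.94 to Ifi35 at -0.13, and most crosses lie below their point.

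Of 16311 genes outside the list, those whose log2 level followed the members most closely over the 19 libraries were Ddx60 (r = 0.93, rho = 0.78), an RNA helicase, Iigp1 (r = 0.88), an interferon-induced GTPase, and Gm12250 (r = 0.86). They were followed by H2-Q7 (r = 0.86), a nonclassical MHC molecule, Apol9b (r = 0.85), Apol9a (r = 0.83), Rnf213 (r = 0.82), Samd9l (r = 0.82), Gm42869 (r = 0.81) and Trafd1 (r = 0.81). Without anti-IL-38 replicates 4 and 6 these 10 had r between 0.65 and 0.85. The chemokines Cxcl9 and Cxcl10, which attract T cells, had r = 0.60 and r = 0.48. The receptor genes Ifnar1 and Ifngr1 had r = -0.27 and r = 0.24, and Socs1, a feedback inhibitor, had r = 0.31.

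The ligands were barely read. 16 of 21 interferon genes had 0 reads in all 23 libraries, among them Ifnb1, and the upper limit for a gene without reads was 0.189 to 0.478 CPM across libraries. Ifng had 17 reads in total, with 0 in 14 libraries and at most 6, so that a difference between groups was not detectable at this depth. No ligand passed the filter on low values.

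The genes of the receptor chains Ifnar1 and Ifngr1 had log2 fold changes of 0.02 (SE 0.24, adjusted p = 0.983 in limma) and -0.16 (SE 0.15, adjusted p = 0.669) between IL-38 KO and WT tumors. With anti-IL-38 they were -0.01 (SE 0.18) and 0.02 (SE 0.14), and with anti-γδTCR -0.14 (SE 0.26) and 0.10 (SE 0.22). None of the 6 had an unadjusted p under 0.05.

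A further 30 interferon-induced genes that are not members, also chosen with earlier results of these data known, were set beside them. In IL-38 KO tumors 28 of 30 were lower than in WT, 15 of them with an unadjusted p under 0.05 (5.4% of all genes), and the median log2 fold change was -0.56. With anti-IL-38, 19 of 29 tested were higher, with a median of 0.19, 2 in each direction at an unadjusted p under 0.05 (5.61% of all genes higher and 4.91% lower). With anti-γδTCR, 23 of 29 were higher with a median of 0.34, 6 of them with an unadjusted p under 0.05 (12.7% of all genes), and 2 of the lower ones had one too (9.0%). Cxcl9 had 80.1, 109, 106 and 170 normalized counts with IgG and 226, 223, 152 and 188 with anti-γδTCR (log2 fold change 0.79, SE 0.25, adjusted p = 0.0936 in limma). Cxcl10 had 56.1, 83.7, 71.0 and 77.6 in IL-38 KO and 86.6, 53.7, 66.2 and 91.7 in WT tumors, and the groups overlapped (log2 fold change -0.03, SE 0.24). None of these 30 genes passed the adjusted threshold in these 3 comparisons.

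Of 7 genes tested that restrain the response, 5 were higher with anti-IL-38 (50.2% of all genes). 2 of these had an unadjusted p under 0.05 (5.61% of all genes), namely Socs1 (log2 fold change 1.21, SE 0.45, adjusted p = 0.425 in limma) and Socs3. In IL-38 KO tumors 4 of 7 were higher than in WT (50.6% of all genes). 2 of the lower ones had an unadjusted p under 0.05 (5.4% of all genes). Of 12 genes that induce interferon, 9 were lower in IL-38 KO tumors (49.4% of all genes). 2 of these 9 had an unadjusted p under 0.05 (5.4%). With anti-γδTCR 10 of the 12 were lower (48.1% of all genes). 4 of these 10 had an unadjusted p under 0.05 (9.0%), among them the RNA receptor Tlr7 and the transcription factor Irf5.

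In the comparison of genotypes, the log2 fold changes of members with and without an ISRE core overlapped. Whether a core goes with a larger difference was not tested, and members without a promoter at hand are left out. The 14 with a core had log2 fold changes of -1.10 to -0.12 with a median of -0.63, and the 17 without had -0.83 to -0.06 with a median of -0.47. The ranges overlapped likewise with anti-IL-38, with medians of 0.19 and 0.05, and with anti-γδTCR, with medians of 0.32 and 0.29.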

How the data were processed

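The authors deposited normalized counts, a signal in which every read count was divided by the size factor of its library. One table holds 19 libraries, and a separately normalized one holds 8 and repeats the 4 IL-38 KO + IgG libraries. The submitters' processing notes name GRCm39, STAR, HTSeq and DESeq2, without versions. Division by the value of 1 read gave whole reads for 100% of values within 0.0001%. Names came from GENCODE M21 and promoters from RefSeq, both GRCm38. The 41 members, the role, pathway and marker lists and the tests were chosen with earlier results of these data known.

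Values were tested as log2(normalized count + 1), which understates the fold change of low genes, for every gene whose mean in a comparison reached 5. The main test was two-sided, by limma 3.58.1 (R 4.3.3) with eBayes and its trend option. Only the libraries compared entered a fit, except for the interaction, and p-values were adjusted by Benjamini-Hochberg over all genes at a threshold of 0.05. The alternatives were edgeR 4.0.16 and DESeq2 1.42.0 on whole reads, pseudocounts of 0.5 and 5, no filter or a minimum of 20, TMM rescaling, quantile normalization, a block for replicate number, a term for the experiment, and the removal of single libraries. Counts of groups without overlap after removal of IL-38 KO + IgG replicate 4 were added after seeing the data. On simulated counts with 200 genes changed 4-fold, limma recovered 189 of 200 with 17 false calls for IL-38 KO against WT (16611 genes). For anti-IL-38 it recovered 198 with 10 false calls (16009 genes). DESeq2 recovered 197 with 51 false calls and 199 with 34 in the same 2 comparisons. Recovery of smaller fold changes, such as those of the members, was not tested. No libraries were duplicates (chi-square per degree of freedom 15.9 to 125). Named are, per comparison, up to 12 members with the smallest unadjusted p under 0.05, representatives fixed for each role, named pathway genes, and the 10 genes outside the list with the highest r. Members named for a place in a range or count were chosen after their values were seen. Limits of 0 are 3 reads and cover counting error only. 1 gene of the pathway lists is not reported here.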

Additional observations from a re-analysis of the deposited data

Results flagged for a closer look

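In 9 of 145 groups of 4 to 6 libraries, over 29 members, 1 library lay apart from the others by Dixon's test at 95%; about 7.25 such groups arise by chance at 1 in 20. Anti-γδTCR replicate 2 was high for Isg15 (2700 normalized counts, others 1483 to 1641), for Oasl2 (1635) and for Gbp3 (498). Anti-γδTCR replicate 3 was high for Oas1a (56.1), as was IL-38 KO + IgG replicate 3 in the table of 19 libraries (33.2). IL-38 KO + IgG replicate 2 was high for Ifi35 (341) and low for Dhx58 (227). IL-38 KO + IgG replicate 1 was high for Gbp3 (331), and WT + IgG replicate 1 was low for Parp14 (1707).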

How the results depend on the processing

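Of the counts and medians of members and genes, 380 values under an alternative kept their direction and size within the stated limits and 54 did not. Of the fold changes of named members, 1606 kept direction and side of the threshold, 64 changed sign and 20 passed the threshold in addition, 13 of them in DESeq2 for IL-38 KO against WT. For IL-38 KO against WT, genes called numbered 1, but 0 in edgeR, 298 in DESeq2 and 0 to 7 when a library was left out, and members called were 15 in DESeq2 in place of 0. For anti-IL-38, genes called (0) were 75 in DESeq2 and 0 to 6 when a library was left out. Members with an unadjusted p under 0.05 (1) were 0 with quantile normalization, 2 in DESeq2 and 0 to 5 when a library was left out, and members higher (29) were 19 to 34. For anti-γδTCR, genes called (0) were 1030 in DESeq2 and 0 to 2357 when a library was left out, and members called (0) were 4 and 0 to 3, with the highest values without IL-38 KO + IgG replicate 4. Members with an unadjusted p under 0.05 (11) were 7 with TMM rescaling, 5 with quantile normalization and 7 to 14 when a library was left out. In the pooled comparison, genes called (0) were 1 in edgeR, 70 in DESeq2, 1 with the experiment as a term and 0 to 23 when a library was left out, the last without IgG1 replicate 3. Members with an unadjusted p under 0.05 (5) were 3 in edgeR, 3 in DESeq2 and 3 to 9, the last without IgG1 replicate 5. For the interaction, genes called (1) were 0 in edgeR. The causes were not tested.

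Deviations of same-numbered libraries from their group means had r of -0.17 to 0.07. These values cannot show whether such libraries were paired in the experiment. With the replicate number as a block, genes called were 1 for anti-IL-38 and 0 for IL-38 KO against WT, and members with an unadjusted p under 0.05 were 3 for anti-IL-38, 32 for IL-38 KO against WT, 12 for anti-γδTCR and 2 in the pooled comparison. In this fit the log2 fold change of Parp14 with anti-IL-38 was 0.0023, and those of Isg15 and Irf7 in the pooled comparison were 0.136 and 0.127.

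Signs changed for named members with small differences. With anti-IL-38, leaving out a library gave ranges of -0.081 to 0.179 for Usp18, -0.0354 to 0.437 for Oas2, -0.115 to 0.209 for Rsad2, -0.138 to 0.0739 for Stat2, -0.243 to 0.128 for Bst2 and -0.123 to 0.0466 for Parp14, which was 7.2e-04 in DESeq2. For IL-38 KO against WT the ranges were -0.191 to 0.0386 for Irf1 and -0.292 to 0.0036 for Bst2. With anti-γδTCR they were -0.0799 to 0.241 for Ifit1, -0.081 to 0.261 for Rsad2 and -0.148 to 0.182 for Gbp2, and quantile normalization gave -0.0022 for Ifit1 and -0.0033 for Rsad2. In the pooled comparison they were -0.038 to 0.228 for Ifit1, -0.161 to 0.136 for Isg15, -0.139 to 0.127 for Irf7 and -0.192 to 0.0194 for Bst2. There, Isg15 was 0.00936 in edgeR, 0.0138 in DESeq2 and 0.0156 with the experiment as a term, Igtp was 0.0321 in edgeR and 0.0321 in DESeq2, and Irf7 was 0.074 in edgeR, 0.0759 in DESeq2 and 1.06e-04 with a pseudocount of 5.

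Depth limited the ligands, and Oas1a and Socs1 rest on low counts.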
